A study of Homo sapiens with 4 samples.

Results

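The 46 translation initiation factor genes described here were found by name among 15942 genes in a table of read counts from human embryonic stem cells. They are the rows with a coding RefSeq transcript whose symbol begins with EIF and a digit. EIF4A3, EIF2S1 and the EIF2AK kinase genes were outside the rule. The set was grouped by factor: EIF1 and EIF1A (4 genes), EIF2 (4), EIF2B (5), EIF3 (13), the helicase EIF4A2 with EIF4B and EIF4H (3), the cap-binding EIF4E genes with their regulators (8), EIF4G (3), and EIF5, EIF5A, EIF5B and EIF6 (6).

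The cells were H9, a widely used line of human embryonic stem cells grown on Matrigel in E8 medium. RNA was sequenced from cells given a small interfering RNA (siRNA) to luciferase, the control (siLuc), or to UPF1 (labelled siUpf1, written siUPF1 here), with 2 libraries in each group. UPF1 is the helicase of nonsense-mediated mRNA decay (NMD), the pathway that removes transcripts whose translation ends early. The protocol given for every library mentions an siRNA to UPF3A too, and actinomycin D, a transcription inhibitor, and no label ties a time of that treatment to a library. Both groups carry an siRNA, so an untransfected level is not analysed here. The labels do not say whether libraries of 1 group are separate cultures. The p-values therefore reflect only how far these libraries spread, which may be technical.

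Initiation factors bring the small ribosomal subunit, the initiator tRNA and the mRNA together at the start codon. EIF2 carries the initiator tRNA and EIF2B recharges EIF2 with GTP. EIF3 is the many-subunit scaffold on the small ribosomal subunit, and EIF4E, EIF4G and the helicase EIF4A form the complex that binds the cap. EIF1, EIF1A and EIF5 set how strictly the start codon is read, and EIF5B joins the large subunit. Several of these proteins also bear on NMD: the pathway acts on translated mRNA, and EIF4G and EIF3 subunits have been linked to how UPF1 acts near a stop codon. Those links are background and were not measured here.

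The siRNA target was measured first. UPF1 stood at 219 and 205 CPM (read counts scaled to a common library total with TMM factors) in controls a and b and at 60.8 and 78.2 CPM in siUPF1 replicates 1 and 2, so 32.9% of the control level remained. Library totals ran from 8887239 to 11200973 counts. The 8 listed stem cell markers summed to between 1630 and 1740 CPM in the controls and between 1410 and 1510 CPM in the siUPF1 libraries. Of 6 fibroblast markers 3 were in the table, with sums of 324 to 336 CPM in the controls and 337 to 349 CPM after UPF1 siRNA. Neural markers (4 of 4) summed to 123 to 135 CPM and then 63.6 to 81.1 CPM, trophoblast markers (4 of 4) to 14.5 to 15.9 and then 19.6 to 20.8 CPM, endoderm markers (3 of 5) to 15.7 to 17.0 and then 18.1 to 23.9 CPM, and mesoderm markers (2 of 4) to 6.90 to 8.58 and then 5.60 to 8.28 CPM. None of the markers in the table was at 0 in every library, and their part in the results below was not tested. In bulk RNA, fewer cells of a type and less RNA per cell cannot be told apart.

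Many genes of the translation machinery begin with a terminal oligopyrimidine tract, a C at the transcription start followed by a run of C and T, through which mTOR and LARP1 control their translation. A C at the start followed by at least 4 bases that are each C or T was found, on the transcribed strand, for 9 of the 38 tested initiation factor genes with a start in the RefSeq promoter table (23.7%). The same feature was present for 7.13% of the 11160 tested genes in that table and for 5.14% of all 27305 genes in it. The starts of 6 of them are shown because they let a reader see this shared feature across EIF3, EIF4A and EIF4B. Each line gives 15 bases before the start and 10 from the start onward, 5′ to 3′ on the gene's strand, build GRCh38.p14, with the tract in capitals as far as the window reaches.
EIF3D (chr22:36529157-36529181, minus strand): gcgcgcgcatgtttcCTCTTTTCCT
EIF3F (chr11:7987322-7987346, plus strand): ttccgcttccgcctcCTTCTTTCTC
EIF3K (chr19:38619173-38619197, plus strand): ttccgtttccaccacCTCTTCCTgt
EIF3M (chr11:32583816-32583840, plus strand): gcgcggcccagttccCTTTTCCggt
EIF4A2 (chr3:186783562-186783586, plus strand): gttgggcgccgctgtCTTTTCagtc
EIF4B (chr12:53006441-53006465, plus strand): ttgcctcatccgggtCTTTTgcgtt
The tract was also found for EIF2A, EIF2D and EIF2S3. A match describes the letters at an annotated start and is no evidence that the start is used in H9 cells.

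Initiation factor transcripts were abundant and spread widely. Per length, the controls held from 0.713 CPM per kilobase (EIF4E1B) to 87.4 CPM per kilobase (EIF5A), with a median of 48.5 over the 45 tested members against 16.6 over all 15557 tested genes. The tested EIF3 subunits ran from 43.1 for EIF3J, the loosely bound subunit, to 71.8 for EIF3H, with a median of 63.0. EIF2B subunits lay lower, between 30.2 (EIF2B5, the catalytic subunit) and 45.6 (EIF2B4).

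Some paralogs stood far apart in level and others close together. EIF5A, whose hypusine-modified protein helps ribosomes through difficult peptide bonds, stood at 87.4 CPM per kilobase in the controls and its paralog EIF5A2 at 4.17. The ratio of their levels was 21.5 and 20.3 in controls a and b and 19.6 and 17.7 in siUPF1 replicates 1 and 2. Of the cap-binding genes, EIF4E2, which encodes the repressive homolog, had the highest control level at 52.0 CPM per kilobase, above EIF4E at 36.2, EIF4E3 at 12.7 and the oocyte-type EIF4E1B at 0.713. The order of these 4 genes was the same in all 4 libraries. Of the EIF4G genes, the control levels were 83.0 for EIF4G2 (DAP5, which lacks the EIF4E-binding part), 71.6 for EIF4G1 and 39.5 for EIF4G3. EIF4G1 ran from 61.4 to 74.4 and EIF4G2 from 72.8 to 86.1 over the 4 libraries, so the ranges of this pair overlapped.

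**Figure D1:**
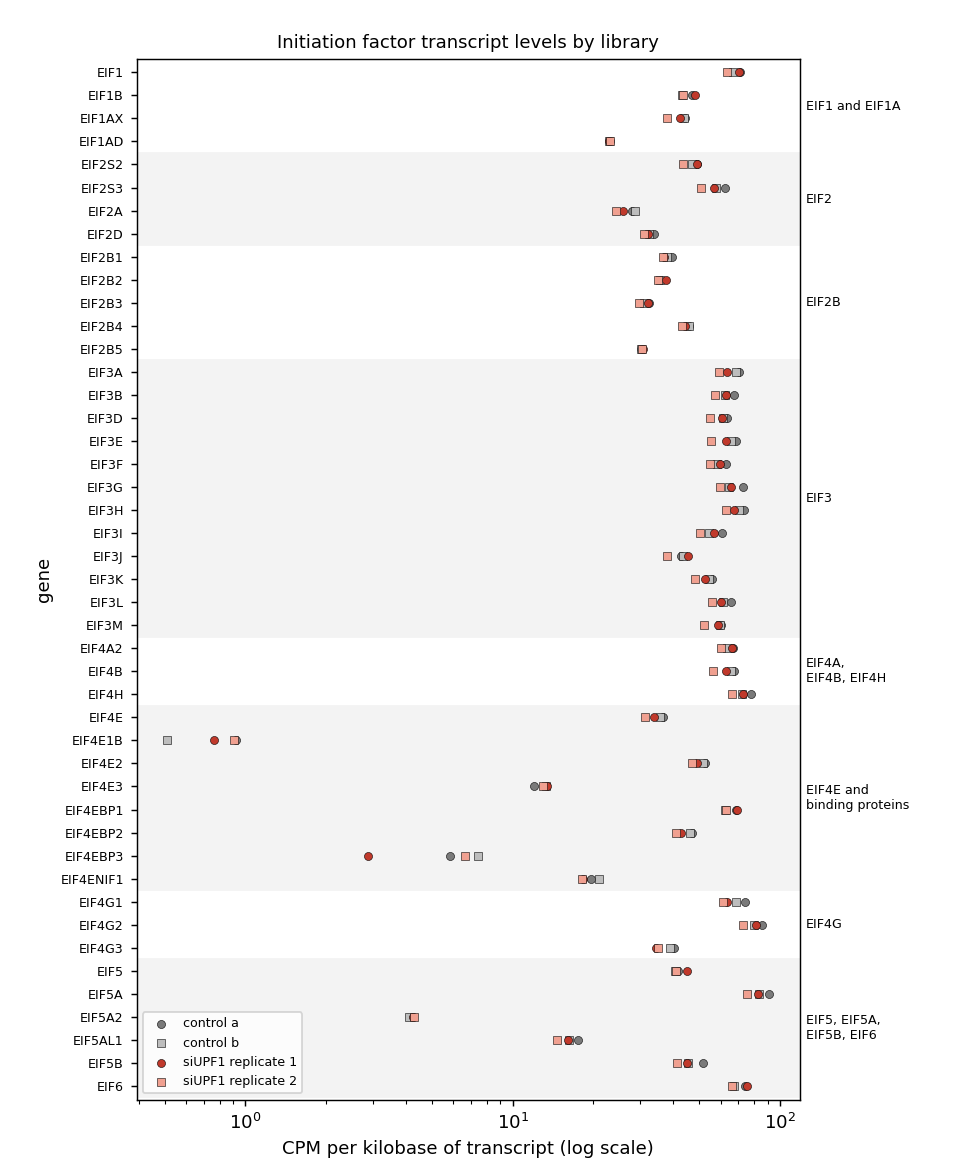
Level of each of the 45 tested initiation factor genes in each library, as CPM per kilobase of transcript on a log axis; grey marks are the 2 controls and red marks the 2 siUPF1 libraries. EIF3 subunits sit between 37.8 and 73.2, while EIF4E1B, EIF4EBP3 and EIF5A2 lie under 8 in every library.

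Few of these genes passed the test after UPF1 siRNA. None of the 45 tested initiation factor genes rose, 3 fell (EIF4G1, EIF4G3 and EIF3A) and 42 did not pass (edgeR quasi-likelihood test, Benjamini-Hochberg adjusted p of 0.05 over all 15557 genes). The share that fell was 6.67%, against a background of 9.14% of all tested genes. The share that rose was 0 of 45, against a background of 16.8%. No member had an unadjusted p under 0.05 on the rising side in edgeR, DESeq2 or limma-voom. On the falling side 12 had one in edgeR. The share of all tested genes under that unadjusted threshold was not counted, so unadjusted counts here and below have no background.

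The estimates were small but mostly on one side of 0. The median log2 fold change was -0.11 over the members and -0.01 over all tested genes, and 35 of 45 members were below 0 (77.8%, background 51.4%). Both siUPF1 libraries lay below both controls for 23 members (51.1%, background 31.1%) and above both for 1, EIF2B5 (background 32.3%). For the 43 members averaging at least 100 counts, the estimates ran from -0.20 to 0.06 and the 95% intervals from -0.34 (EIF4G1) to 0.27 (EIF5A2). For these 43 genes the intervals therefore hold no rise or fall of 2-fold. Like the p-values, the intervals reflect only the spread of 2 libraries in each group, which may be technical.

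**Figure D2:**
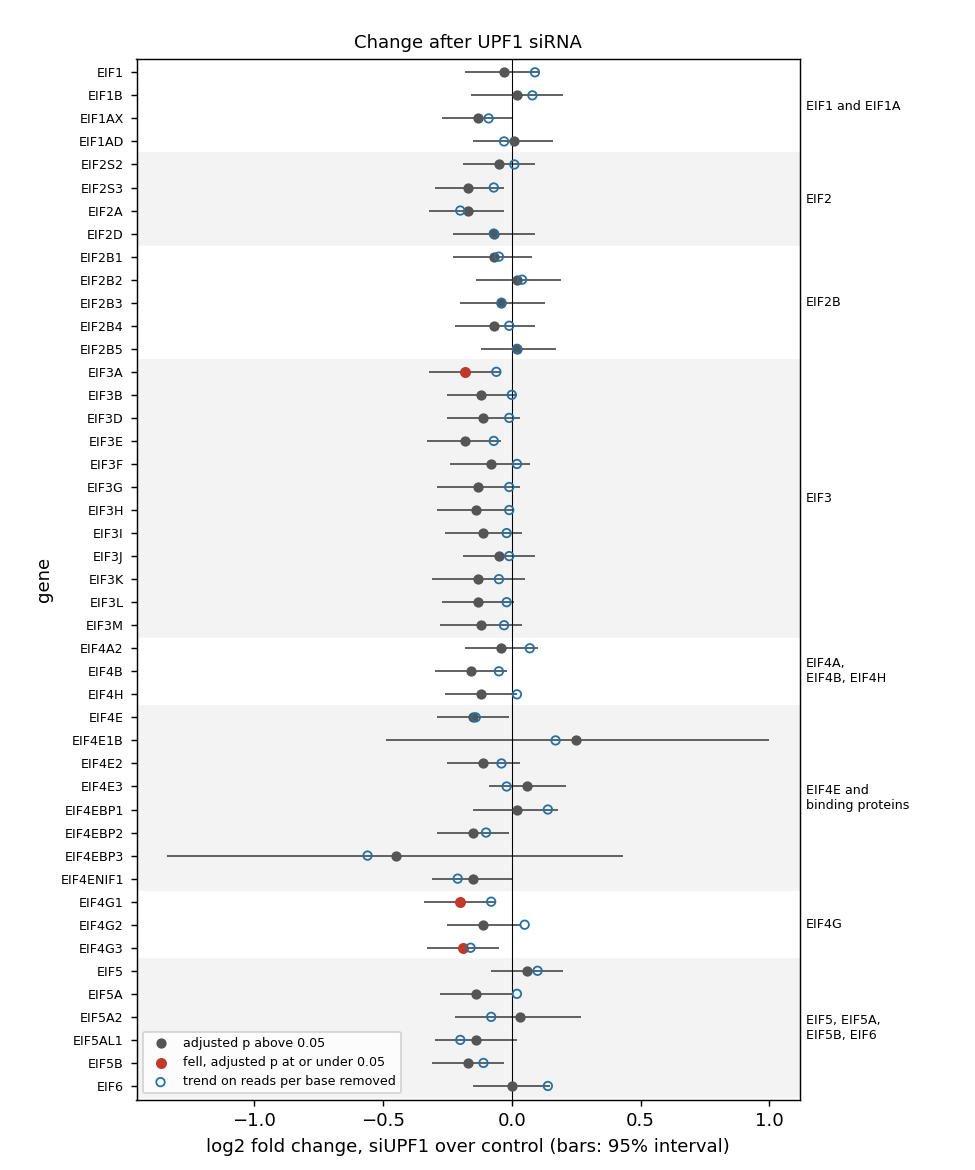
Log2 fold change (siUPF1 over control) of each tested initiation factor gene with its 95% interval. Filled red marks are the 3 genes that fell, and open blue marks the estimates after removal of the reads-per-base trend, whose median is -0.02.

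The scaffold genes of the cap-binding complex held 2 of the 3 falls. EIF4G1, which bridges the cap-binding protein, the helicase and EIF3, stood at 403 and 372 CPM in controls a and b and at 342 and 332 CPM in siUPF1 replicates 1 and 2. Its raw counts were 3560, 3734, 3422 and 3727 in the same order, in libraries of different depth. Both siUPF1 libraries were below both controls. The means were 388 ± 21.4 and 337 ± 7.31 CPM (SD, n = 2 in each group), with a log2 change of -0.20 (SE 0.07, 13.0% lower, edgeR adjusted p = 0.0251). EIF4G1 passed in DESeq2 (adjusted p = 0.0367) and did not pass without control a (-0.15, adjusted p = 0.409, edgeR), without control b (-0.26, 0.0583) or without siUPF1 replicate 2 (-0.18, 0.0888).

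EIF4G3, a paralog of EIF4G1 with a like role, stood at 237 and 229 CPM in the controls and at 203 and 206 CPM in siUPF1 replicates 1 and 2. The groups did not overlap and the siUPF1 libraries were close to each other. The means were 233 ± 6.01 and 205 ± 2.09 CPM (SD, n = 2 in each group), with a log2 change of -0.19 (SE 0.07, 12.2% lower, edgeR adjusted p = 0.0355). It did not pass without control a (adjusted p = 0.339, edgeR), without control b (0.129) or without siUPF1 replicate 1 (0.0719), nor in DESeq2 (0.0796). EIF4G2, which supports cap-independent and reinitiating translation, had 321 and 297 CPM in the controls and 303 and 271 CPM after UPF1 siRNA, so the groups overlapped, and it did not pass at -0.11 (SE 0.07, adjusted p = 0.282, edgeR).

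All 12 tested EIF3 subunits had estimates below 0 (background 51.4%), and 1 fell (background 9.14%). For 7 of them both siUPF1 libraries lay below both controls (background 31.1%). The subunits had a median of 0.603 reads per transcript base. The 1072 tested genes at 0.5 or more had a median log2 fold change of -0.12 and a 90th percentile of 0.03. EIF3A, the largest subunit and part of the core that EIF3 assembles around, had 371 and 362 CPM in controls a and b and 336 and 312 CPM in siUPF1 replicates 1 and 2. The groups did not overlap. The means were 366 ± 5.80 and 324 ± 17.0 CPM (SD, n = 2 in each group), with a log2 change of -0.18 (SE 0.07, 11.7% lower) with an edgeR adjusted p of 0.05, at the threshold itself. EIF3A did not pass without control a (adjusted p = 0.333, edgeR), without control b (0.176) or without siUPF1 replicate 2 (0.268), nor in DESeq2 (0.0745). EIF3E, a subunit that binds EIF4G and is also known as INT6, was just outside at -0.18 (SE 0.07, adjusted p = 0.0502, edgeR), with 103 and 98.4 CPM in the controls and 94.3 and 83.2 CPM after UPF1 siRNA.

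The rest of EIF3 lay between -0.14 and -0.05. The core subunit EIF3B (-0.12), the RNA-binding EIF3G (-0.13) and the WD-repeat EIF3I (-0.11) had overlapping groups, as did EIF3F (-0.08) and EIF3J (-0.05). EIF3D, which can bind the cap of some mRNAs (-0.11), EIF3H (-0.14), EIF3K (-0.13), EIF3L (-0.13) and EIF3M (-0.12) were below both controls in both siUPF1 libraries and did not pass. EIF3 had a median of -0.12 over its 12 tested subunits, and of -0.02 after a trend on reads per transcript base, described below, was removed. Without siUPF1 replicate 1 the median was -0.19, and without siUPF1 replicate 2 it was -0.05.

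EIF3C was the only member left out by the filter on low counts, with 1, 3, 5 and 3 counts in control a, control b, siUPF1 replicate 1 and siUPF1 replicate 2. The deposited RPKM values put the length counted for it at 180 nt. EIF3C has a near-identical copy, EIF3CL, which is not analysed here. These counts are no measure of a core subunit, and the treatment of reads that 2 genes share is not stated in the labels.

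Of the EIF2 group, none passed and all 4 were below 0 (background 51.4%). EIF2A, an initiation factor unrelated to the EIF2 complex that can bring the initiator tRNA to some mRNAs, had 108 and 111 CPM in the controls and 99.7 and 94.0 CPM in siUPF1 replicates 1 and 2. The groups did not overlap. Its log2 fold change was -0.17 (SE 0.07, adjusted p = 0.0579, edgeR). EIF2S3, the gamma subunit that binds GTP and the tRNA, was alike at -0.17 (215 and 200 against 195 and 174 CPM, adjusted p = 0.0674, edgeR). EIF2S2, the beta subunit, stood at -0.05 and EIF2D, which works at non-canonical starts and in recycling, at -0.07.

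The 5 subunits of EIF2B, the exchange factor through which the integrated stress response acts, were among the closest to 0. They ran from -0.07 to 0.02 with a median of -0.04, and the lowest adjusted p was 0.547 (edgeR), for EIF2B1. EIF2B1, a regulatory subunit, had 72.2 and 68.8 CPM in the controls and 67.3 and 66.8 CPM after UPF1 siRNA. EIF2B2 (0.02), EIF2B3 (-0.04) and EIF2B4 (-0.07) did not pass either, nor did EIF2B5 (0.02), which had 87.1 and 87.6 CPM in the controls and 89.0 and 88.3 CPM in the siUPF1 libraries. For EIF2B5 the 95% interval ran from -0.12 to 0.17.

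The EIF1 and EIF1A group did not pass, nor did EIF5. EIF1, which keeps the ribosome scanning until a good start codon is found, stood at -0.03, its paralog EIF1B at 0.02 and the EIF1A-domain gene EIF1AD at 0.01. EIF1AX, the X-linked EIF1A gene, had the lowest p of the 4, with 195 and 193 CPM in the controls and 187 and 167 CPM in siUPF1 replicates 1 and 2 (-0.13, SE 0.07, adjusted p = 0.153, edgeR). Both siUPF1 libraries were below both controls, and replicate 2 was the lower. EIF5, the GTPase activator of EIF2, had 239 and 234 CPM in the controls and 258 and 236 CPM after UPF1 siRNA, so the groups overlapped (0.06, SE 0.07, adjusted p = 0.552, edgeR). The reference transcript of EIF5 used here carries 6 AUGs upstream of its coding sequence, a feature known to control its translation.

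The helicase and its helpers did not pass. EIF4B, which stimulates the helicase, had 272 and 265 CPM in the controls and 253 and 227 CPM in siUPF1 replicates 1 and 2, without overlap (-0.16, SE 0.07, adjusted p = 0.0785, edgeR). EIF4H, its relative, stood at -0.12, and EIF4A2, 1 of the genes for the helicase itself, at -0.04 with overlapping groups. EIF4A2 is nearly identical over long stretches to EIF4A1, which is not analysed here.

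The cap-binding genes and their regulators did not pass. EIF4E had 119 and 116 CPM in the controls and 110 and 102 CPM in the siUPF1 libraries, without overlap (-0.15, SE 0.07, adjusted p = 0.0994, edgeR). EIF4E2 stood at -0.11 and EIF4E3 at 0.06. Among the EIF4E-binding proteins, which block EIF4E until mTOR phosphorylates them, EIF4EBP1 stood at 0.02 and EIF4EBP2 at -0.15, and EIF4ENIF1, which carries EIF4E into the nucleus and to sites of mRNA decay, at -0.15. EIF4E1B had 16, 10, 15 and 20 counts and EIF4EBP3 had 9, 13, 5 and 13 counts in control a, control b, siUPF1 replicate 1 and siUPF1 replicate 2. Their log2 fold changes, 0.25 (SE 0.38) and -0.45 (SE 0.45), were within about 1 SE of 0, and a change was not detectable at this depth. The length counted for EIF4EBP3 was 174 nt, and its locus also gives read-through transcripts with its neighbour ANKHD1, so its level is uncertain.

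The late-acting factors did not pass. EIF5B had 241 and 213 CPM in the controls and 211 and 192 CPM in siUPF1 replicates 1 and 2, with the higher siUPF1 library next to the lower control (-0.17, SE 0.07, adjusted p = 0.0602, edgeR). EIF5A stood at -0.14 and EIF5A2 at 0.03. EIF5AL1, an EIF5A-like gene with a near-identical sequence, stood at -0.14, and how reads were divided between it and EIF5A is not stated in the labels. EIF6, which keeps the large subunit from joining too early, was at 0.00.

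The shift was not alike in the siUPF1 libraries. Against the control mean, the median log2 ratio over the members was -0.05 in siUPF1 replicate 1 and -0.18 in replicate 2, and 0.03 and -0.03 in controls a and b. Replicate 2 was lower than replicate 1 for 40 of 45 members, with a median log2 ratio of -0.12, and control b was lower than control a for 38 of 45, with a median of -0.06. The difference between the siUPF1 libraries was thus as large as that between the groups. All tested genes had a median log2 ratio of 0.00 in both of these within-group comparisons. Without siUPF1 replicate 1, 13 members fell (background 9.70%), and 2 of the 3 named falls were among them. Without siUPF1 replicate 2, 1 member (EIF4G3) fell (background 9.62%). Without control a or control b none passed (backgrounds 3.51% and 3.89%), with 0 at an unadjusted p under 0.05 without control a and 7, all lower, without control b (edgeR).

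**Figure D3:**
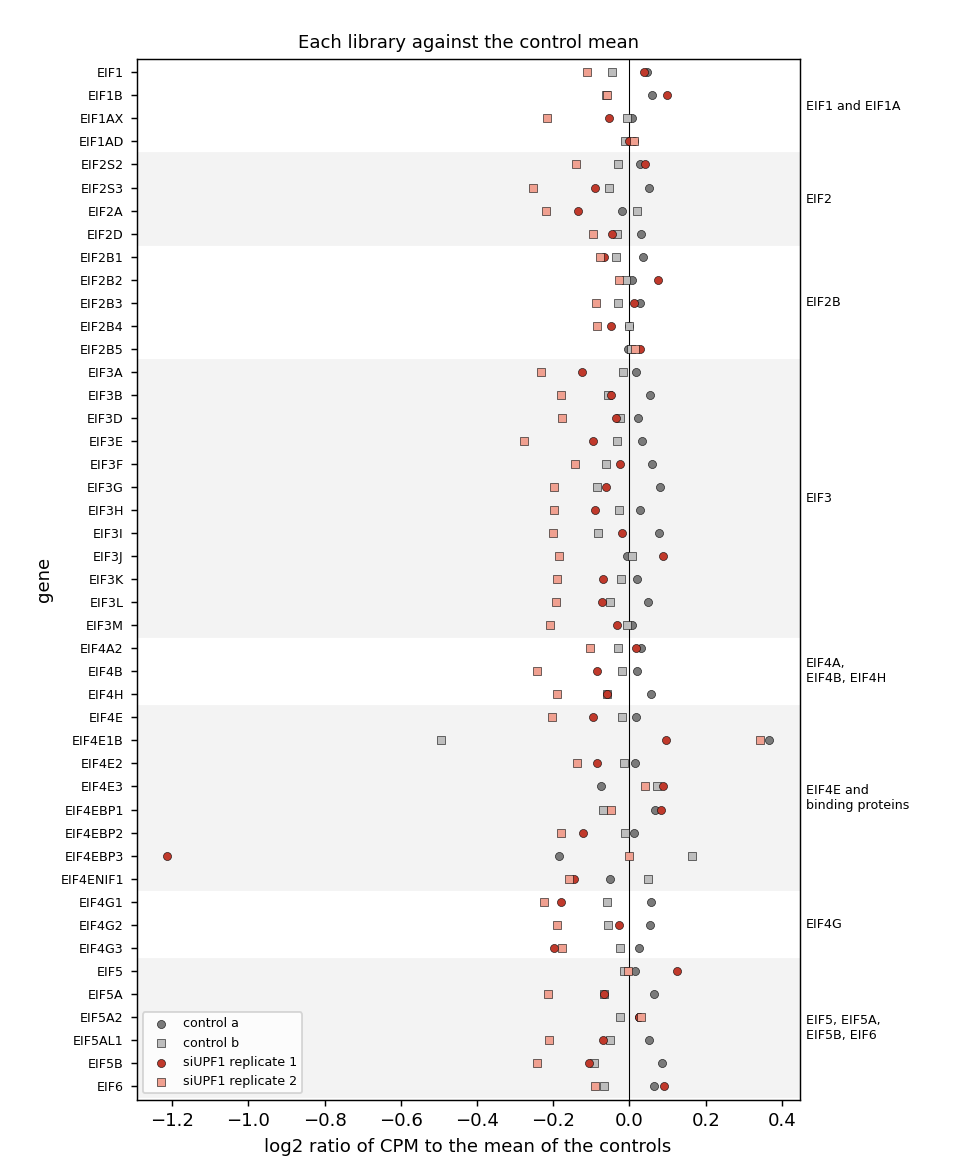
Log2 ratio of each library to the mean of the controls for each tested initiation factor gene. The light red squares of siUPF1 replicate 2 lie farthest left for most genes, with a median of -0.18, while those of replicate 1 have a median of -0.05.

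Read density moved with this shift. The members had a median of 0.470 reads per transcript base, against 0.172 over all tested genes, and 22 of the 45 (48.9%) lay at 0.5 or more, where 6.89% of all tested genes lay. In the 1072 tested genes at that density the median log2 fold change was -0.12, the 10th and 90th percentiles were -0.21 and 0.03, and 15.8% fell and 2.15% rose. The 22 members there also had a median of -0.12, and 2 of them fell (9.09%). Between 0.25 and 0.5 reads per base the median was -0.04 over 4359 genes and -0.07 over 16 members, and 1 member fell (6.25%, background 7.62%). Under 0.25 it was 0.05 over 10126 genes and 0.01 over 7 members.

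The same genes differed within groups. At 0.5 reads per base or more, the median log2 ratio was -0.12 between the siUPF1 libraries, 2 over 1, and -0.09 between the controls, b over a. After a trend on reads per base was taken out of each library, the members' median was -0.02, as was that of all genes. The trend was fitted to these same libraries, so any change shared by genes of like density is taken out, whatever its source. A median near 0 is therefore set by the method, and the source of the trend was not tested. Then 3 members fell (background 12.6%), of which EIF4G3 (-0.16, adjusted p = 0.0197, edgeR) was shared with the 3 above, and the others were EIF2A (-0.20, 0.0191) and EIF4ENIF1 (-0.21, 0.0230). EIF4G1 and EIF3A then stood at -0.08 (adjusted p = 0.204) and -0.06 (0.286). Of all genes with at least 100 counts none was above 1.12 reads per base, and whether counts level off at such densities was not tested.

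**Figure D4:**
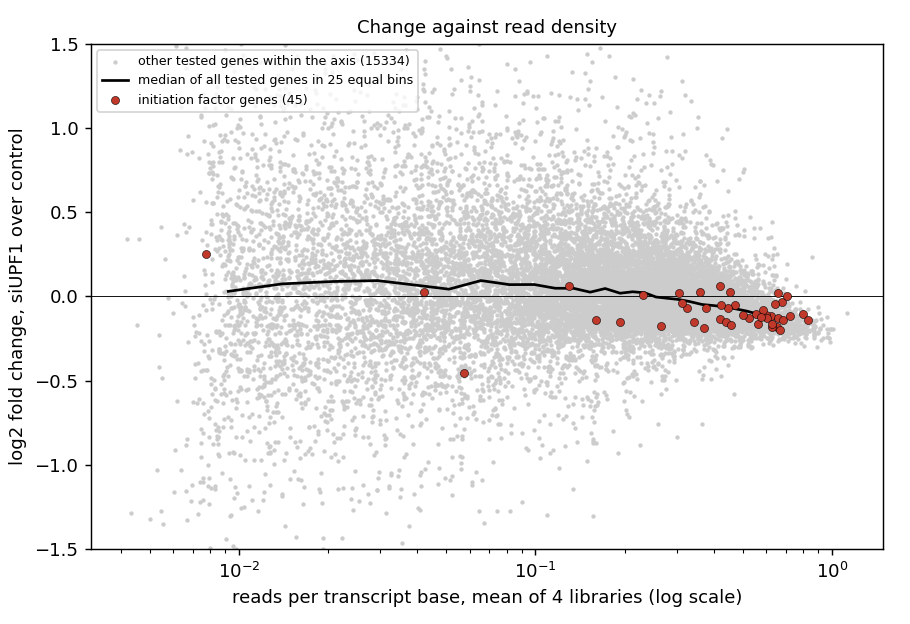
Log2 fold change (siUPF1 over control) against reads per transcript base on a log axis, for all tested genes (grey), the median of all genes in 25 bins of equal size (black) and the 45 initiation factor genes (red). The median line goes below 0 at the densities where most of the red marks lie, and 178 genes fall outside the vertical axis.

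Medians were close whether or not a member's transcripts carried the features counted next. In GENCODE release 29, 22 of the 45 tested members (48.9%) have at least 1 transcript annotated as an NMD substrate, against 41.0% of 13471 tested coding genes. EIF2B5 has the most, 17. The median log2 fold change was -0.11 for these 22 and -0.12 for the other 23, with 1 and 2 falls; over all matched genes the medians were 0.01 and -0.03. The counts are of whole genes, so a change in such a transcript alone may not show in them.

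At least 1 AUG upstream of the coding sequence was present in the reference transcript of 16 members (35.6%, against 50.6% of all matched genes), with a median of -0.11 against -0.12 for the other 29. Members with the pyrimidine tract had a median of -0.12 and those without it -0.11. Of the 9, 0 fell (background 9.14%), and 9 genes are too few to set against that share. Over all tested genes in the promoter table the medians were -0.05 and -0.01. After the reads-per-base trend was removed, the members' medians were -0.05 and -0.02. Members with and without the tract had median control levels of 60.0 and 43.1 CPM per kilobase, and medians of 0.575 and 0.421 reads per base. Introns of EIF4A2, EIF4G1, EIF4G2 and EIF5 hold small nucleolar RNAs, and these 4 host genes stood at -0.04, -0.20, -0.11 and 0.06.

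Other genes of translation were counted in the same fit. Of 47 genes on a list of elongation, termination, poly(A)-side, start-site, kinase and mitochondrial factors, 2 rose, 11 fell and 34 did not pass (27.7% called, background 25.9%), with a median log2 fold change of -0.11. By direction, 23.4% fell, against 9.14% of all tested genes, and 4.26% rose, against 16.8%. CTIF, a cap-complex partner that takes part in the first round of translation, rose from 43.4 and 48.6 CPM in the controls to 59.4 and 62.2 CPM (0.40, SE 0.09, adjusted p = 3.94e-05, edgeR). RPTOR, the mTOR partner, rose from 109 and 120 CPM to 129 and 141 CPM (log2 fold change 0.24, SE 0.07, adjusted p = 0.00491, edgeR). Both siUPF1 libraries were above both controls for both genes. Without control a neither passed (edgeR adjusted p = 0.0521 for CTIF and 0.335 for RPTOR). RPTOR also did not pass in DESeq2 (adjusted p = 0.0972) or without siUPF1 replicate 2 (0.0859, edgeR), where CTIF passed (0.0184 and 0.00049).

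The falls included the poly(A)-binding protein genes PABPC4 (-0.30, SE 0.07) and PABPC1 (-0.22, SE 0.07), and the termination factor GSPT2 (-0.31, SE 0.07). The poly(A)-binding protein inhibitor PAIP2B (-0.29, SE 0.07), the elongation kinase EEF2K (-0.29, SE 0.07) and the recycling ATPase ABCE1 (-0.21, SE 0.07) also fell. In DESeq2 PABPC1 (adjusted p = 0.0608) and ABCE1 (0.111) did not pass, while PABPC4, GSPT2, PAIP2B and EEF2K did. With 1 library left out, ABCE1 ran from -0.28 to -0.13, PABPC1 from -0.30 to -0.15 and PABPC4 from -0.38 to -0.22. By group, 3 of 9 elongation, 2 of 8 termination and recycling, 5 of 14 poly(A) and cap-side, 1 of 8 helicase and start-site, 0 of 6 kinase and 0 of 2 mitochondrial genes fell (background 9.14%). The 5 hold both PABPC1 and PABPC3 (also -0.22, named after its values were seen). How reads shared by such related genes were divided is not stated in the labels, so these may not be separate falls. After the reads-per-base trend was taken out, 10 of the 47 listed genes fell (background 12.6%). PAIP2B (-0.36), EEF2K (-0.38), GSPT2 (-0.32), PABPC4 (-0.21) and ABCE1 (-0.17) were among the 8 of the 11 that still fell. The other 3 did not pass (edgeR): PABPC1 went to -0.07 (adjusted p = 0.200), and the elongation factor genes EEF1G and EEF2, named after their values were seen, went from -0.20 to -0.06 (0.387) and from -0.19 to -0.01 (0.915). These 3 had 0.768, 0.744 and 0.913 reads per base. How many listed genes fell depended on which library was left out, and no share of the list was set against a background there. Whether the listed genes and the initiation factor genes differ in how often they changed was not tested.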

How the data were processed

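The deposited table holds whole-number read counts per gene, not normalized, beside RPKM values deposited by the authors for the same libraries. Per the submitters' processing notes, STAR and DESeq2 were used on hg19, with no versions or roles. Counting rules, strand use and the treatment of repeated or multimapping reads are not given in the sources used here. Both control columns carry 1 name, so controls are called a and b, and 2 RPKM columns of the controls were not used. Transcript length was derived from the siUPF1 counts and RPKM values.

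The test was edgeR 4.0.16 (glmQLFit, glmQLFTest, two-sided, R 4.3.3) with TMM and filterByExpr, which kept 15557 genes and left out 385, adjusted over all of them by Benjamini-Hochberg at 0.05. It was also run on counts simulated from means and dispersions fitted to these libraries. The simulated counts held no trend on reads per base, so that run cannot show how the test behaves under such a trend. SE is the log2 fold change divided by the square root of F. The biological coefficient of variation was 4.47%. Alternatives were library size alone, RLE factors, limma-voom (limma 3.58.1), DESeq2 1.42.0, other filters, an adjusted p of 0.1, each library left out, genes under 0.25 reads per base, near-identical copies left out, and a loess trend (span 0.3) on reads per base removed. All initiation factor genes are named; those past the threshold and the lowest p of each factor group are given by library, with the 8 lowest p of the other translation genes. The members, lists and alternatives were chosen with earlier results of these data known. Transcript features are from GENCODE release 29 and starts from RefSeq on GRCh38.p14. No coordinates of the counted genes are given because the table holds none.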

Additional observations from a re-analysis of the deposited data

How the results depend on the processing

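No initiation factor gene rose under any of the alternatives run. The number that fell, 3 of 45 tested members, was 4 with RLE factors, 8 with library size alone, 9 at an adjusted p of 0.1 and 1 in DESeq2. It was 4 of 46 with no low-count filter and 5 of 43 with a filter of 5 CPM in 2 libraries. Among the 7 members under 0.25 reads per base the number was 0 (2 at an unadjusted p under 0.05, edgeR). With 1 library left out it ran from 0 to 13. The members' median was -0.02 once the reads-per-base trend was removed. Of the same 15557 genes, 1422 fell in the edgeR test above (9.14%), 1468 with RLE factors, 1539 with library size alone and 2026 at an adjusted p of 0.1. With library size alone 1539 fell, with the filter of 5 CPM in 2 libraries 1338, and 2026 fell at an adjusted p of 0.1. DESeq2 called 1274 genes up and 465 down over all genes, and 1 up and 4 down on the list of other translation genes. Under 0.25 reads per base 1717 genes rose and 1232 fell, and 1 rose and 4 fell on that list, where fewer genes were tested. With 1 library left out, the counts ran from 1444 to 2764 up and 552 to 1522 down over all genes, and from 0 to 2 up and 3 to 14 down on that list. A group cut to 1 library is assumed to vary like the other group. No paired analysis was possible because the control columns carry no replicate number.

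Sign changes were seen only in members that did not pass. After the reads-per-base trend was removed these were EIF1 (0.09), EIF4A2 (0.07), EIF4G2 (0.05), EIF3F, EIF4H and EIF5A (0.02 each), EIF2S2 (0.01), EIF4E3 (-0.02), EIF1AD (-0.03) and EIF5A2 (-0.08). Under 0.25 reads per base they were EIF1AD (-0.05) and EIF5A2 (-0.02). With 1 library left out, EIF1 ran from -0.11 to 0.04, EIF1B from -0.05 to 0.10, EIF1AD from -0.01 to 0.01, EIF2S2 from -0.14 to 0.04, EIF2B2 from -0.03 to 0.08, EIF2B3 from -0.09 to 0.01, EIF3J from -0.19 to 0.08 and EIF4A2 from -0.11 to 0.02. In the same way EIF4E1B ran from -0.14 to 0.72, EIF4E3 from -0.01 to 0.13, EIF4EBP1 from -0.06 to 0.09, EIF5 from 0.00 to 0.13, EIF5A2 from -0.01 to 0.05 and EIF6 from -0.09 to 0.09. EIF6, at 0.00, changed sign at 0.00 with RLE factors, library size alone, no low-count filter and DESeq2. The cause was not tested. Depth limits EIF3C, EIF4E1B and EIF4EBP3, each under 21 counts in every library.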
